A study of Mus musculus with 4 samples.

Results

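The TNF superfamily comprises the ligands related to tumour necrosis factor and the receptors that bind them. Its members were taken by symbol: protein-coding genes named Tnfsf or Tnfrsf with a number, together with Tnf, Lta, Ltb, Ltbr, Fas, Fasl, Cd40, Cd27, Cd70, Ngfr, Eda2r and Edar. Of 43 such genes in the annotation, 40 were measured among the 22456 genes of the table, 15 ligands and 25 receptors. Cd70, Tnfrsf17 and Edar were not analysed here. The 26 members with a mean over the 4 libraries of at least 3.32 (log2 of 10) were tested, 8 ligands and 18 receptors.

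RNA came from fibroblasts of mouse mammary tumours, in 2 groups. In the GSK group (2 libraries), 4T1 cells, a mouse mammary carcinoma line, had been kept for 5 days in 5 µM GSK269962A, a kinase inhibitor, before they were injected. In the DMSO group (2 libraries) the 4T1 cells had been kept in DMSO, the solvent. In both groups the cells were transplanted orthotopically into Balb/cAnN mice and the tumours were taken 8 days after injection. The labels give the compound to the cancer cells only, and the fibroblasts are the cells that stayed unbound when hCD2, CD326, CD31 and CD45 were used for magnetic depletion. No label ties a library to its own animal, and p-values then measure only the spread between these samples.

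Ligands of the superfamily are mostly trimeric transmembrane proteins that can be shed from the cell surface. Their receptors fall into those with a cytoplasmic death domain, which can recruit caspase-activating adaptors, those that bind TRAF adaptors and signal to NF-kB and stress kinases, and decoys that bind a ligand without signalling. Fibroblasts are classical responders to TNF, which induces chemokines, adhesion molecules and matrix proteases in them through NF-kB.

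A level is the deposited log2 expression value of a gene, and a difference is GSK minus DMSO in log2 units. The values are not counts, and the depth behind each is unknown. Low genes vary little on this scale: the median range over the 4 libraries was 0.232 in the tested members, 0.0203 in the 14 members below the threshold and 0.113 in all 14548 tested genes. A difference in a low member may therefore be understated. Fibroblast identity genes were high, with 13 of 13 measured at means between 10.76 for Fap and 20.51 for Col1a1. Defining markers of cells that also make TNF superfamily genes were low: Ptprc, the gene of CD45, averaged 3.81, the macrophage gene Adgre1 0.79 and the epithelial gene Epcam 0.32. The T cell genes Cd3g and Cd5 and the natural killer cell gene Ncr1 lay below 0. Single members of such lists stood higher, among them Cd53 at 11.03, the epithelial gene Krt19 at 8.82, Cd3e at 8.62 and Csf1r at 8.28. The 3 tested epithelial genes, Krt8, Krt18 and Krt19, differed by -0.04, -0.07 and -0.29. In all 3 the GSK libraries lay below the DMSO libraries, as in 24.5% of all tested genes. Their part in the members' differences was not tested.

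No member passed the test. Of the 7 that came nearest, 4 receptors were higher in GSK, and 2 ligands and the receptor Fas were lower. Tnfrsf26, of the receptor cluster on chromosome 7, was 1.46-fold higher, the largest difference of the 26. Tnf itself was 1.21-fold lower, Fas 1.22-fold lower and Tnfsf9, the ligand of Tnfrsf9, 1.18-fold lower. Tnfrsf21 was 1.21-fold and Cd40 1.19-fold higher. In limma, 0 of 26 members had an adjusted p under 0.05, where 0.282% of all 14548 tested genes (41) did. At an unadjusted p under 0.05 there were 7 members, 26.9% of the 26, against 16.0% of all tested genes (2330). Of these 7, 4 were higher in GSK (7.88% of all tested genes were) and 3 lower (8.13% of all). At an adjusted p under 0.10 there was 1 member, Tnfrsf26, where 2.5% of all tested genes (363) passed. The groups did not overlap in 13 of 26 members and in 48.6% of all tested genes, so the members' share lies near the background. Of 9 pericyte and smooth muscle genes, 7 had positive estimates, among them Cspg4 at 0.49, and 2 negative, Kcnj8 at -0.21 and Abcc9 at -0.12. Their summed level, mostly Acta2, was 15.65 and 15.74 in GSK, against 15.35 and 15.64 in DMSO. Acta2 itself overlapped between the groups, at 14.91 and 15.05 in GSK and 14.68 and 14.98 in DMSO. The part of these 9 genes in the members' differences was not tested. The median size of the difference, whatever its sign, was 0.11 in the members and 0.05 in all tested genes. Members also varied more within GSK. The median gap between the 2 GSK libraries was 0.095 in the members and 0.050 in all tested genes. Between the 2 DMSO libraries it was 0.053 and 0.046.

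**Figure D1:**
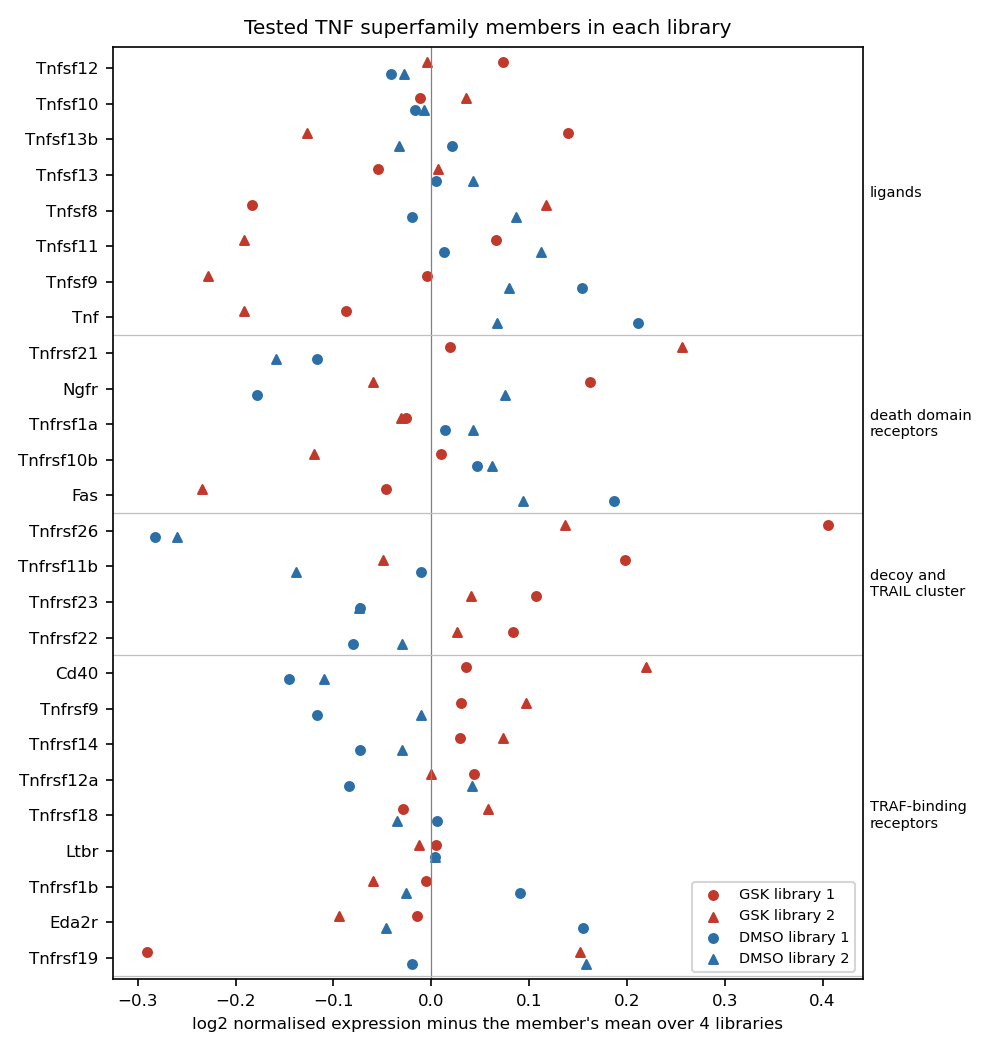
Each tested member in each library. The horizontal axis is the log2 normalised expression minus the member's mean over the 4 libraries, with GSK libraries in red above DMSO libraries in blue and members grouped by role. Tnfrsf26 spans the widest range, and the groups do not overlap in 13 of 26 members.

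Levels were compared between members only per length, as the log2 level minus log2 of the exon length in kb. By this measure receptors led. Tnfrsf1a, the ubiquitous receptor of TNF, was highest at 11.10, above every other member in every library. Tnfrsf23 at 9.78, Tnfrsf12a, the receptor of the ligand Tnfsf12, at 9.76 and Ltbr, the lymphotoxin beta receptor, at 9.64 followed. The libraries of Tnfrsf23 ran from 9.71 to 9.89 and those of Tnfrsf12a from 9.68 to 9.81, so the order of these 2 receptors is within their spread. With the longest coding transcript as the length, the same 4 receptors led, Tnfrsf1a at 11.37 and Tnfrsf23 at 11.21. The next were Tnfsf12, a ligand that binds Tnfrsf12a, at 8.94, Tnfrsf21 at 8.81, Tnfrsf11b, the secreted decoy receptor osteoprotegerin, at 8.63, Tnfsf9 at 8.27 and Tnfrsf1b, the second TNF receptor, at 8.25.

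Several ligands and their receptors were both measured in the fraction. Per length, Tnfsf12 stood at 8.94 beside its receptor Tnfrsf12a at 9.76. Tnfsf9 stood at 8.27 beside Tnfrsf9 at 7.68. Tnfsf11, the osteoclast differentiation factor RANKL, stood at 7.60 beside its decoy Tnfrsf11b at 8.63, while its signalling receptor Tnfrsf11a stood at -0.68. Tnf stood at 6.43, well below Tnfrsf1a. The pairs of the death ligands were one-sided, with Fasl at -1.37 beside Fas at 6.92, and Tnfsf10, the ligand TRAIL, at 1.55 beside Tnfrsf10b at 5.86. Fasl and Tnfrsf11a are members below the threshold. Before length was subtracted, Fasl had the same value as Ncr1 in every library. Its figure per length therefore lies at the floor of the scale and is not a measured level like that of Fas.

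**Figure D2:**
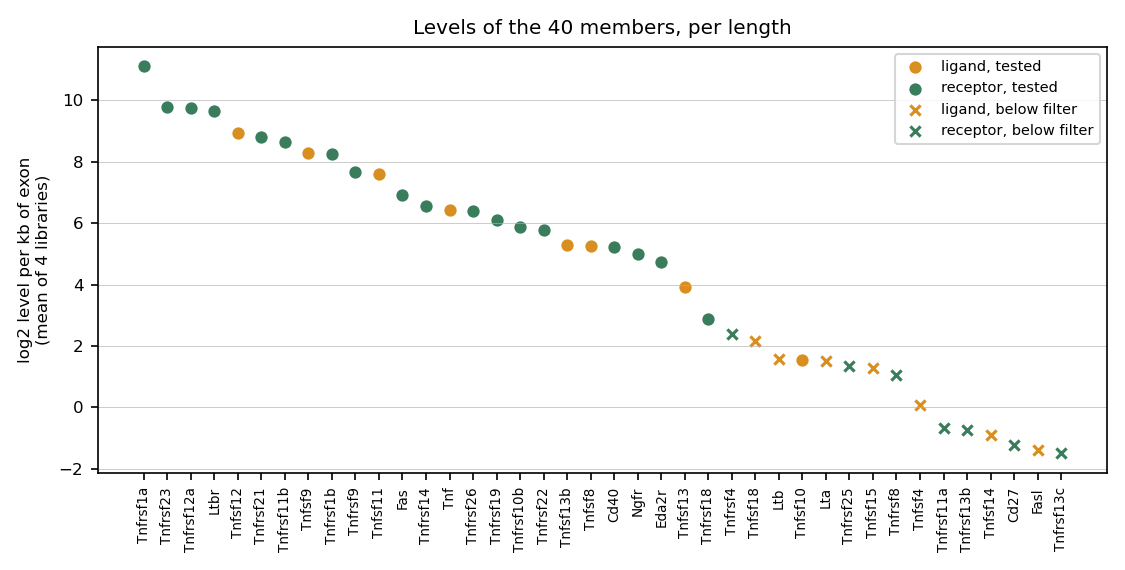
Level per length of the 40 measured members. The vertical axis is the mean log2 level over the 4 libraries minus log2 of the exon length in kb, circles are tested members and crosses members below the threshold. Tnfrsf1a stands at 11.10 and Tnfrsf13c, the lowest, at -1.49.

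Many of the 14 members below the threshold are best known from lymphocytes. Among the ligands, Lta averaged 2.0 (level, log2), Ltb 2.16, Tnfsf15 3.03, Tnfsf18 3.23 and Tnfsf4 0.97, and Fasl and Tnfsf14 lay at or below 0. Among the receptors, Tnfrsf4 averaged 2.84, Tnfrsf8 2.85, Tnfrsf25 2.52, Tnfrsf11a 1.90, Tnfrsf13b 0.78, Cd27 0.00 and Tnfrsf13c -0.45. Just inside the threshold lay Tnfrsf18 at 3.50 and just outside it Tnfsf18, its ligand, at 3.23. None of these values is an estimate of absence, since the depth is unknown.

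Among the ligands, Tnf and Tnfsf9 were lower in GSK without passing the test, and the other 6 differed by at most 0.13. The median difference of the 8 tested ligands was -0.06, against 0.00 (-0.0007) over all tested genes, with 3 estimates positive and 5 negative. It was -0.09 without DMSO library 1 and -0.02 without DMSO library 2. Tnf (ENSMUSG00000024401, GRCm38 chromosome 17, 35199381 to 35202007) had 7.06 and 6.95 in the GSK libraries, against 7.36 and 7.21 in the DMSO libraries. Both GSK libraries lay below both DMSO libraries. The difference was -0.28 ± 0.07 (SE, n = 2 libraries each), with a limma adjusted p of 0.13 and a 95% interval from -0.44 to -0.12. In bulk RNA, fewer cells of a type and less RNA per cell cannot be told apart. Tnf is also made by macrophages and T cells. The 10 macrophage and monocyte genes, mostly Csf1r, summed to 9.09 and 8.95 (log2) in GSK, against 9.21 and 9.12 in DMSO. The 8 measured T cell genes, mostly Cd3e, summed to 9.13 and 8.96 in GSK, against 9.41 and 9.07 in DMSO, with sums that overlapped. Cd3e differed by -0.30, and the other 2 tested T cell genes, Lck and Il2ra, by 0.05 and 0.06. Their part in the result was not tested.

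The 250 bases before the start of Tnf (RefSeq, GRCm38.p6, chr17:35202008-35202257, minus strand) are shown because Tnf is a classical NF-kB target. Capitals mark matches to a loose NF-kB motif, GGG, any 5 bases and CC, on either strand.
Tnf: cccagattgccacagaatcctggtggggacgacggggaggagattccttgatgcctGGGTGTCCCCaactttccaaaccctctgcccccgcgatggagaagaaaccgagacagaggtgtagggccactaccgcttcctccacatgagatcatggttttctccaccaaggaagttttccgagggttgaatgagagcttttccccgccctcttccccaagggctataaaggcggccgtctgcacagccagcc
The match begins 194 bases before the start. The motif was present in 45.8% of all 32851 promoter windows of this length and in 24 of 36 windows of the members (66.7%, from 32 genes with an entry). A match is a description of letters, not a binding site.

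Lta and Ltb, which flank Tnf within 10.9 kb, were near 2 in every library, so Tnf was the gene of that trio that could be tested. Tnfsf9 (chromosome 17, 57105325 to 57107757), a costimulatory ligand of activated T cells, had 8.63 and 8.40 in the GSK libraries, against 8.79 and 8.71 in the DMSO libraries. The groups did not overlap, but GSK library 1 lay nearer to the DMSO libraries than to GSK library 2. The difference was -0.23 ± 0.08 (limma adjusted p = 0.229), and it was -0.12 without GSK library 2. A long non-coding gene, Gm11110, overlaps Tnfsf9 on the other strand by 618 bases at a level of 5.76, and strand-specific counting was not stated.

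Tnfsf11 had 8.82 and 8.57 in the GSK libraries, against 8.77 and 8.87 in the DMSO libraries. The groups overlapped, with GSK library 2 alone low, and the difference was -0.13 ± 0.09 (limma adjusted p = 0.537). Tnfsf8, the ligand of Tnfrsf8, had 6.99 and 7.29 in GSK, against 7.15 and 7.26 in DMSO. Here GSK library 1 was the low one, and the GSK libraries enclosed the DMSO libraries. Tnfsf13b, the B cell survival factor BAFF, had 8.20 and 7.93 in GSK, against 8.08 and 8.03 in DMSO, again with the GSK libraries on either side, and Tnfsf10 differed by 0.02. Spread within GSK was thus at least as large as the difference between groups for Tnfsf11, Tnfsf8 and Tnfsf13b.

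Tnfsf12 had 9.61 and 9.53 in the GSK libraries, against 9.50 and 9.51 in the DMSO libraries, a difference of 0.07 ± 0.05 (limma adjusted p = 0.512) that was 0.11 without GSK library 2 and 0.03 without GSK library 1. Tnfsf13, the ligand APRIL, lies next to it on chromosome 11 and differed by -0.05. Both values are uncertain, since transcripts of the read-through gene Tnfsfm13 match Tnfsf12 over 731 bases at 99.59% identity and Tnfsf13 over 989 bases at 99.70%. Summed on the linear scale, the 3 genes stood at 9.91 and 9.87 in GSK and at 9.82 and 9.80 in DMSO.

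**Figure D3:**
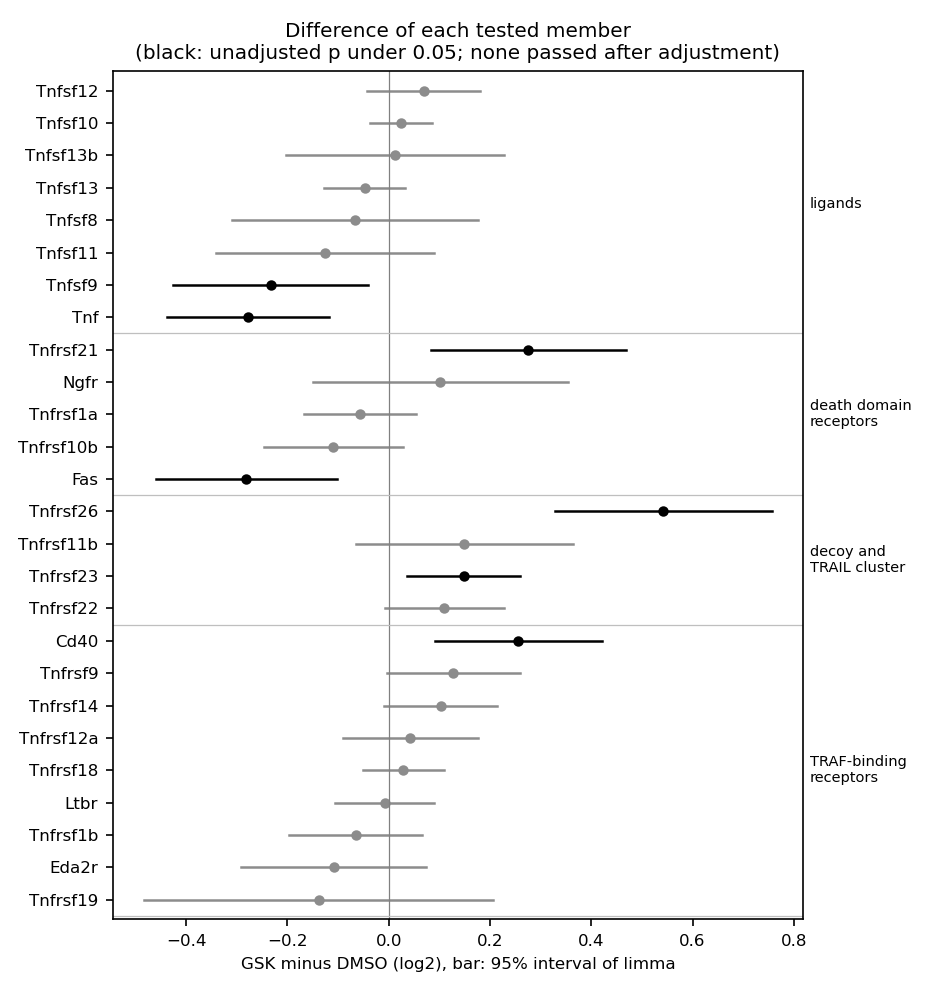
Difference of each tested member, GSK minus DMSO on the log2 scale, with the 95% interval of limma as the bar, grouped by role. The interval of Tnfrsf26 runs from 0.33 to 0.76 and lies farthest from 0, and no adjusted p was under 0.05.

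The 5 tested death domain receptors divided by direction. Fas, which on binding its ligand can start apoptosis, was lower and Tnfrsf21, the death receptor DR6, was higher in GSK, both without passing the test. Fas (ENSMUSG00000024778, chromosome 19, 34290666 to 34327772) had 7.92 and 7.73 in the GSK libraries, against 8.15 and 8.06 in the DMSO libraries. The groups did not overlap, and the difference was -0.28 ± 0.07 (limma adjusted p = 0.15, 95% interval from -0.46 to -0.10). It was -0.19 without GSK library 2. Tnfrsf21 (ENSMUSG00000023915, chromosome 17, 43016555 to 43089189) had 10.87 and 11.10 in GSK, against 10.73 and 10.69 in DMSO. GSK library 2 set most of the difference of 0.28 ± 0.08 (limma adjusted p = 0.177), which was 0.16 without that library and 0.39 without GSK library 1.

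The windows before the starts of Fas (RefSeq, GRCm38.p6, chr19:34290409-34290658, plus strand) and Tnfrsf21 (chr17:43016305-43016554, plus strand) set this pair side by side, with capitals for the same NF-kB motif.
Fas: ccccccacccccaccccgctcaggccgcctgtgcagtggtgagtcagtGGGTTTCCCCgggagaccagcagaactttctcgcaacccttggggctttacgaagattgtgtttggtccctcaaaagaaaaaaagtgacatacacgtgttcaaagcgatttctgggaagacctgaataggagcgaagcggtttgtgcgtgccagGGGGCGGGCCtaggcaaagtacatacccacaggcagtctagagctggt
Tnfrsf21: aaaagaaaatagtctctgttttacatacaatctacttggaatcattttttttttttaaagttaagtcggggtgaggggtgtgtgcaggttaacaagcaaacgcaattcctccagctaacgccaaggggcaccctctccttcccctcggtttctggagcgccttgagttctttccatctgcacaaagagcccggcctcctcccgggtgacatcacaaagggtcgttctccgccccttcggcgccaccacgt
Fas held 2 matches, beginning 202 and 48 bases before the start, and Tnfrsf21 held none. An AP-1 motif, TGANTCA on either strand, was present once in the Fas window without overlapping an NF-kB match, and in 6.75% of all windows and 6 of 36 windows of the members. No match says only that these letters are not in this window.

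Tnfrsf1a had 12.45 and 12.44 in the GSK libraries, against 12.49 and 12.52 in the DMSO libraries. Both GSK libraries lay below both DMSO libraries by little, and the difference of -0.06 ± 0.05 had a 95% interval from -0.17 to 0.05. Tnfrsf10b, the mouse TRAIL receptor with a death domain, had 8.32 and 8.19 in GSK, against 8.35 and 8.37 in DMSO (difference -0.11 ± 0.06, limma adjusted p = 0.404). That difference was -0.17 without GSK library 1 and -0.05 (-0.045) without GSK library 2. Ngfr, the low-affinity neurotrophin receptor, had 6.95 and 6.73 in GSK, against 6.61 and 6.87 in DMSO. Its groups overlapped, and the difference of 0.10 ± 0.10 turned to -0.02 without DMSO library 1 and -0.01 without GSK library 1. Ngfr also marks Schwann cells, whose defining gene Sox10 averaged 0.81.

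The 4 tested receptors that act as decoys, or lie beside such decoys, had positive estimates, as did 7199 of all 14548 tested genes. None of the 4 passed the test. All but Tnfrsf11b lie together at 1 place in the genome, and the groups of Tnfrsf11b overlapped. On chromosome 7, Tnfrsf26, Tnfrsf22 and Tnfrsf23 lie within 78.2 kb (143607659 to 143685872, GRCm38), all on the minus strand, and Tnfrsf22 and Tnfrsf23 are known in mice as decoys for TRAIL. Tnfrsf26 (ENSMUSG00000045362, 143607659 to 143628722) had 8.48 and 8.21 in the GSK libraries, against 7.79 and 7.82 in the DMSO libraries. Both GSK libraries were well above both DMSO libraries, though they differed between themselves by more than the DMSO pair did. The difference was 0.54 ± 0.09 with a limma adjusted p of 0.065, and the gene ranked 163rd of 14548 by p. The limma adjusted p was 0.0269 without GSK library 2, where the difference was 0.68, and 0.204 without DMSO library 1, where it was 0.53.

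Tnfrsf23 (ENSMUSG00000037613, 143665809 to 143685872) had 11.87 and 11.81 in the GSK libraries, against 11.69 in both DMSO libraries. The groups did not overlap, and the difference was 0.15 ± 0.05 (limma adjusted p = 0.199). Tnfrsf22 (ENSMUSG00000010751, 143634806 to 143649661) had 7.95 and 7.89 in GSK, against 7.79 and 7.84 in DMSO, a difference of 0.11 ± 0.05 (limma adjusted p = 0.338). In each of the 3 genes of the cluster both GSK libraries lay above both DMSO libraries, as in 24.1% of all tested genes. The long non-coding gene E230032D23Rik overlaps all 3 genes on the other strand, at a level of 2.90.

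Tnfrsf22 and Tnfrsf23 are close copies, and a stretch of their coding sequences is shown as an example of where they differ. The stretch covers coding bases 77 to 196 of Tnfrsf22 and 47 to 166 of Tnfrsf23 (longest coding transcript, GENCODE M21, 5′ to 3′), with capitals at the 18 bases that differ.
Tnfrsf22: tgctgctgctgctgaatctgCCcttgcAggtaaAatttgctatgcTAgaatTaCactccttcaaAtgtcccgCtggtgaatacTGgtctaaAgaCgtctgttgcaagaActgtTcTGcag
Tnfrsf23: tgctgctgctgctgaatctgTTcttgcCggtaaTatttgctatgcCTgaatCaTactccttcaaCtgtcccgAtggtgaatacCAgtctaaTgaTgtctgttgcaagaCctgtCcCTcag
Over the 528 aligned coding bases the 2 genes were 90.7% identical, and 58 of 545 windows of 50 coding bases in Tnfrsf22 occur unchanged in Tnfrsf23. The stretch shown, with 18 differing bases of 120, differs more than the alignment as a whole. Reads from shared windows could be divided between the 2 genes. The coding sequences hold 594 bases in Tnfrsf22 and 528 in Tnfrsf23, of 4217 and 3962 exon bases. Windows outside them were not counted, so how far reads separate the 2 genes is not known. Summed on the linear scale, the pair stood at 11.97 and 11.90 in GSK and at 11.79 in both DMSO libraries, a difference of 0.15. Tnfrsf26 shared no such window with either gene, at 60.1% identity with Tnfrsf22 and 56.4% with Tnfrsf23.

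The window before the start of Tnfrsf23 (RefSeq, GRCm38.p6, chr7:143685876-143686125, minus strand) is given for comparison with those above, with capitals as before.
Tnfrsf23: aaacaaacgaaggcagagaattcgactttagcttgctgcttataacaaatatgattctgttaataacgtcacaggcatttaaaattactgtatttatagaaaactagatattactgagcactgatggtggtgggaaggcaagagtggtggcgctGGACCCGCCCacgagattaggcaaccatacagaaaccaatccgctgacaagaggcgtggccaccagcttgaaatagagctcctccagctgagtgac
It held 1 NF-kB match, beginning 96 bases before the start.

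The neighbours of the cluster were looked at after its values were seen. Within 500 kb on either side, 10 other genes were tested, with differences between -0.05 and 0.31 and a median of 0.07, against 0.00 (-0.0007) over all tested genes. Of these, 8 had positive and 2 negative estimates, and all 6 on the Tnfrsf23 side were positive, at 0.06 (0.0573) to 0.31. Both GSK libraries lay above both DMSO libraries in 5 of the 10, where 24.1% of all tested genes did, and below them in 1. Next to Tnfrsf26, Cars, a cysteine tRNA ligase, differed by -0.05, and next to Tnfrsf23, Osbpl5, an oxysterol-binding protein, by 0.07. The largest, Shank2, a synaptic scaffold gene, differed by 0.31 (limma adjusted p = 0.0745).

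**Figure D4:**
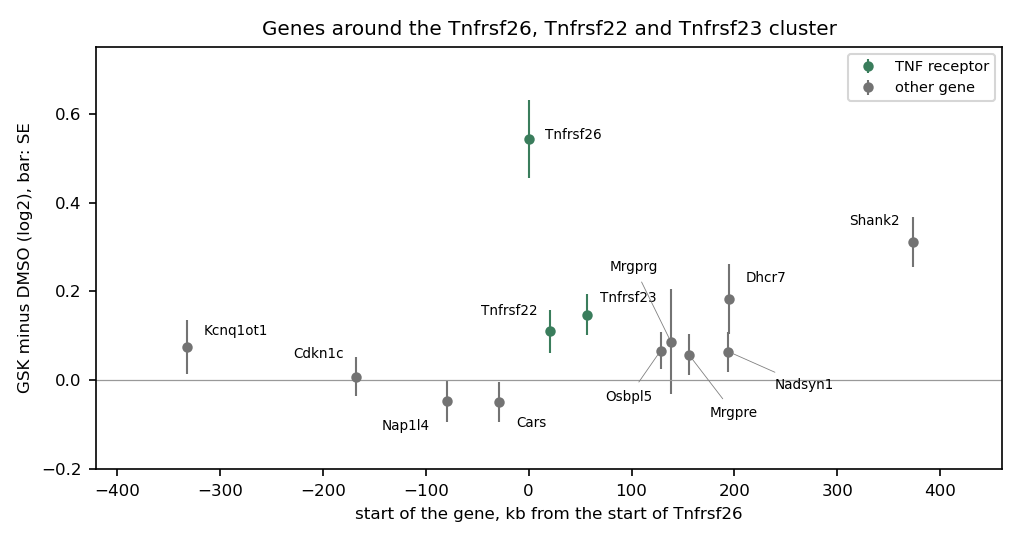
Difference of each tested gene near the receptor cluster, GSK minus DMSO on the log2 scale with the SE as the bar, against the distance of its start from that of Tnfrsf26 in kb. Tnfrsf26 stands at 0.54, while Cars and Osbpl5, the nearest other genes tested on either side of the cluster, stand at -0.05 and 0.07 and Shank2 at 0.31.

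Tnfrsf11b, which binds Tnfsf11 and keeps it from its receptor, had 10.32 and 10.08 in the GSK libraries, against 10.11 and 9.99 in the DMSO libraries. The groups overlapped, and the difference of 0.15 ± 0.09 (limma adjusted p = 0.458) was 0.27 without GSK library 2 and 0.03 without GSK library 1. The estimates for ligand and decoy therefore had opposite signs, -0.13 for Tnfsf11 and 0.15 for Tnfrsf11b, and neither passed the test.

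Of the 9 tested receptors that bind TRAF adaptors, 5 had positive and 4 negative estimates, with a median of 0.03. Cd40 (ENSMUSG00000017652, chromosome 2, 165055627 to 165072948), the costimulatory receptor of antigen-presenting cells that fibroblasts also express, had 7.04 and 7.23 in the GSK libraries, against 6.86 and 6.90 in the DMSO libraries. The groups did not overlap, and the difference was 0.26 ± 0.07 (limma adjusted p = 0.155, 95% interval from 0.09 to 0.42). It was 0.16 without GSK library 2 and 0.35 without GSK library 1. Markers of antigen-presenting cells ranged widely. Itgax averaged 2.23 and Adgre1 0.79, while Zbtb46 averaged 7.87, Csf1r 8.28, Ly6c2 7.34 and Cd68 5.11. Summed, the 6 dendritic cell genes stood at 7.95 and 8.01 in GSK, against 8.01 and 8.00 in DMSO, and their part in the result was not tested.

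Tnfrsf9, a costimulatory receptor best known from T cells, had 9.15 and 9.22 in the GSK libraries, against 9.01 and 9.11 in the DMSO libraries (difference 0.13 ± 0.05, limma adjusted p = 0.325). Tnfrsf14, the herpesvirus entry mediator, had 7.12 and 7.16 in GSK, against 7.02 and 7.06 in DMSO (difference 0.10 ± 0.05, limma adjusted p = 0.348). In both, the GSK libraries lay above the DMSO libraries, but for Tnfrsf9 the gap between the groups was smaller than the gap within DMSO, and its difference was 0.07 without DMSO library 1. Camta1 overlaps Tnfrsf9 on the other strand over 28781 bases, at a level of 6.87. Single genes of the pan-leukocyte and endothelial lists were higher in GSK, Cd53 by 0.91 and Flt1 by 0.51. The 8 pan-leukocyte genes summed to 11.84 and 11.21 (log2) in GSK, against 10.77 and 10.54 in DMSO, nearly all of it Cd53. The 8 endothelial genes, mostly Flt1, summed to 11.48 and 11.09 in GSK, against 10.85 and 10.85 in DMSO, with Pecam1 at a level of 3.31. The other tested endothelial genes differed by -0.10 (Tek) to 0.03 (Vwf), and the other tested pan-leukocyte genes by -0.03 (Lcp1) to 0.07 (Ptprc). Their part in these results was not tested.

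The remaining receptors of this kind differed by less than 0.15. Tnfrsf1b had 10.18 and 10.13 in the GSK libraries, against 10.28 and 10.16 in the DMSO libraries. Tnfrsf12a had 10.76 and 10.71 in GSK, against 10.63 and 10.75 in DMSO. Ltbr had 10.88 and 10.87 in GSK, against 10.88 in both DMSO libraries. In these 3 abundant receptors the 95% interval ran from -0.20 to 0.07 for Tnfrsf1b, from -0.09 to 0.18 for Tnfrsf12a and from -0.11 to 0.09 for Ltbr. Eda2r, a receptor of ectodysplasin A2, differed by -0.11, and Tnfrsf18 by 0.03. Gm16008 overlaps Tnfrsf18 on the other strand over 2732 bases, at a level of 3.99 that exceeds the 3.50 of Tnfrsf18 itself. Tnfrsf19, an orphan receptor, had 8.05 and 8.49 in GSK, against 8.32 and 8.50 in DMSO, with GSK library 1 alone low, and its difference of -0.14 ± 0.14 was 0.08 without that library.

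Over all 18 tested receptors the median difference was 0.07, with 11 positive and 7 negative estimates. It was 0.10 with the threshold raised to log2 of 50 and 0.02 without DMSO library 1. Summed on the linear scale, the 25 receptors stood at 14.28 and 14.26 (log2) in GSK and at 14.22 in both DMSO libraries, and the 15 ligands at 11.14 and 11.00 in GSK and at 11.13 and 11.14 in DMSO.

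Genes that act below the receptors were then read from lists. Over all tested genes, 0.282% passed the test in limma and 16.0% had an unadjusted p under 0.05. The adaptors, death signalling genes and kinases typically differed by no more than tested genes at large. Their median size of difference was 0.04, 0.03 and 0.03, against 0.05 over all tested genes. Of 18 tested adaptors and ubiquitin ligases none passed the test in limma, 1 had an unadjusted p under 0.05 (5.56%), and the median difference was 0.03. That 1 was Traf4, with 8.84 and 8.82 in GSK, against 8.60 and 8.68 in DMSO (difference 0.19, limma adjusted p = 0.143). Birc2, an inhibitor of apoptosis that ubiquitinates Ripk1, differed by -0.13 and Rnf31, of the linear ubiquitin ligase, by 0.09. Of 16 genes of death signalling none passed, 2 had an unadjusted p under 0.05 (12.5%) and the median was 0.03. These 2 were Bcl2, which restrains mitochondrial apoptosis, at 0.20 (limma adjusted p = 0.15), and Cflar, which blocks caspase 8 at the receptor, at 0.15 (limma adjusted p = 0.187). Mcl1, a relative of Bcl2, differed by -0.11. Of 17 kinases and partners of the NF-kB routes none passed, 1 had an unadjusted p under 0.05 (5.88%) and the median was 0.00 (0.0045). Map3k8 stood at -0.22 (limma adjusted p = 0.212), Tank at -0.07 and Tab1 at 0.06.

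Of 9 genes for the shedding of TNF ligands and receptors none passed in limma, and the median was 0.04. Among these 9, 1 had an unadjusted p under 0.05 (11.1%, against 16.0% of all tested genes). That 1 was Rhbdf2, the inactive rhomboid that carries the TNF sheddase Adam17 to the surface, with 10.46 and 10.44 in GSK, against 10.12 and 10.25 in DMSO (difference 0.26 ± 0.05, limma adjusted p = 0.101). Frmd8, which stabilises that complex, differed by 0.09, Erap1, an aminopeptidase, by 0.10 and Adam17 itself by -0.05. Of 8 tested genes of the wider family that the naming rule leaves out, none passed, 1 had an unadjusted p under 0.05 (12.5%) and the median was 0.05. C1qtnf7, of the C1q and TNF related proteins, was at -0.15, Tnfsfm13 at 0.14 and Eda, the ligand of Edar and Eda2r, at -0.10.

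NF-kB subunits and inhibitors had only negative estimates, 11 of 11, with a median of -0.07 and none past the test in limma. At an unadjusted p under 0.05 there were 5, 45.5% of the list against 16.0% of all tested genes. Rel, a subunit, had 7.97 and 7.99 in GSK, against 8.35 and 8.26 in DMSO (difference -0.33, limma adjusted p = 0.0584). Nfkbia, the inhibitor that TNF induces within minutes, had 13.70 and 13.37 in GSK, against 14.29 and 14.14 in DMSO (difference -0.68, limma adjusted p = 0.0703). Nfkbiz differed by -0.36, while Rela, Nfkb1, Nfkb2 and Relb differed by -0.01 to -0.12. The median was -0.14 without GSK library 1 and -0.02 without GSK library 2. Of 9 feedback inhibitors, 1 passed, Tnfaip3, the ubiquitin-editing enzyme A20, with 12.91 and 12.64 in GSK, against 13.75 and 13.61 in DMSO (difference -0.90 ± 0.10, limma adjusted p = 0.0374). Its call was lost without DMSO library 1. The median of that list was -0.05, with Zfp36, which destabilises the Tnf transcript, at -0.48 and Tnip2 at -0.15.

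Among genes that TNF induces in fibroblasts the estimates were larger. Of 26 tested genes, 3 fell in limma, Tnfaip3, the cytokine gene Lif at -0.94 (adjusted p = 0.0199) and Ptgs2, which makes prostaglandins, at -0.84 (adjusted p = 0.0364). The collagenase gene Mmp13 rose, with 13.65 and 14.23 in GSK, against 11.87 and 12.33 in DMSO (limma adjusted p = 0.046). In all, 18 had an unadjusted p under 0.05, 69.2% of the list against 16.0% of all tested genes. The median difference was -0.37, with 21 negative and 5 positive estimates, and it ran from -0.49 to -0.25 with each library left out in turn. The count of 4 was 12 without DMSO library 2 and 0 without DMSO library 1. The chemokine genes Ccl2 at -0.78 and Cxcl2 at -0.85 missed the threshold. Estimates were smaller for Birc3 at -0.15 and Sod2 at -0.19, and Relb, Nfkb2, Traf1, Tnfaip8 and Csf1 lay between -0.03 and 0.03. The list was drawn up with earlier results of these data known and shares Tnfaip3, Nfkbia, Relb, Nfkb2, Birc3 and Traf1 with the lists above, so its direction is a description. Most of its genes also respond to interleukin-1 and other stimuli.

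**Figure D5:**
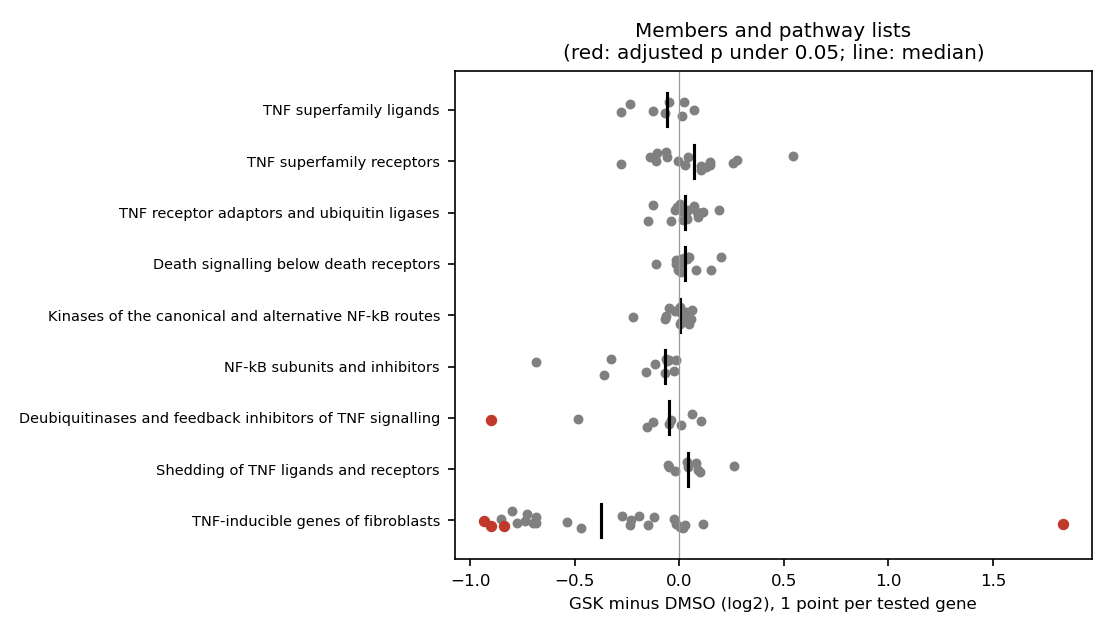
Differences of the tested ligands, receptors and pathway genes, GSK minus DMSO on the log2 scale, with 1 point per gene, a black line at the list's median and red for an adjusted p under 0.05. Ligands and receptors lie between -0.28 and 0.54, while TNF-inducible genes have a median of -0.37.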

How the data were processed

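The authors deposited 1 table of normalised expression on a log2 scale, 1 column per library, for 2 GSK and 2 DMSO libraries. Bowtie2, DESeq2 1.12.4 and RSEM 1.2.29 are named, without roles, in the submitters' processing notes, which also name the builds GRCh38 and mm10. Which transformation was applied is not stated in these sources, and the unit rests on the range of values (-1.04 to 20.58). No column was left unused, and no gene had equal values in both libraries of a group. Identifiers were matched to GENCODE M21 (GRCm38), 22335 of 22456.

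limma 3.58.1 (R 4.3.3) was run on the 14548 genes whose mean reached log2 of 10, using the deposited values unchanged. The model held the group only, with a variance prior following the mean, two-sided p-values and Benjamini-Hochberg adjustment over all tested genes (threshold 0.05). The procedure was tested on simulated data. SE is limma's moderated standard error.

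Members, lists and markers were chosen with earlier results of these data known. Values in every library are given for the 10 tested members with the smallest p, the 5 with the highest level per length, and Tnf, Tnfrsf1a, Tnfrsf1b, Fas, Cd40, Tnfsf11, Tnfrsf11b, Tnfrsf12a, Ltbr, Tnfrsf22, Tnfrsf23 and Tnfrsf10b. Those of Tnfsf8, Tnfsf13b, Ngfr and Tnfrsf19 were added for their spread, after their values were seen. Of each pathway list, genes past the threshold and up to 3 with the smallest p are named; other list genes were named after their values were seen. Marker genes are the defining and the highest of each list.

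Exon lengths came from GENCODE M21 and promoters from the RefSeq table, of which 4 entries are shown: those of the 7 members with an unadjusted p under 0.05 that had one. The NF-kB and AP-1 motifs were searched on both strands. Transcripts were compared with blastn 2.17.0 (98% identity over 200 bases) and coding sequences with Biopython 1.88. Alternatives were other filters, quantile and TMM (trimmed mean of M values) normalisation, variance priors without trend or robust, the replicate number as a block, a threshold of 0.10, another length and each library left out.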

Additional observations from a re-analysis of the deposited data

How the results depend on the processing

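With 2 libraries a group, the test has 2 residual degrees of freedom, and 1 with a library left out, where the lone library is assumed to vary like the others. Over all tested genes, 41 calls became 1 with no filter, 23 after quantile normalisation, 11 without a trend in the prior, 138 with a robust prior, and 7 to 194 with each library left out. Members called were 0 in limma under those settings, except 1 (Tnfrsf26) without GSK library 2, so 0 to 1, and 1 (Tnfrsf26) at a threshold of 0.10. The replicate numbers share only a number: same-numbered libraries deviated together (correlation 0.428 over the tested genes), but 2 pairs are too few to show a pairing. The replicate block leaves 1 residual degree of freedom. With it, 1374 of the 14548 tested genes were called. The 7 of 26 members called were Tnfrsf26 (limma adjusted p = 0.00349), Tnf, Fas, Cd40, Tnfrsf21, Tnfrsf23 and Tnfsf9. In the lists the block gave 2 of 18 adaptors, 1 of 16 death signalling genes, 1 of 17 kinases and 1 of 9 shedding genes. It also gave 3 of 11 NF-kB genes, 2 of 9 feedback inhibitors and 20 of 26 TNF-inducible genes. Feedback inhibitors called were 0 with no filter or without trend, and 0 to 1 with a library left out. TNF-inducible genes called were 0 with no filter, 2 after quantile normalisation, 1 without trend and 0 to 12 with a library left out. NF-kB genes called were 1 with a robust prior and 0 to 1 with a library left out, and the wider family's genes 0 to 1 with a library left out. The median of the ligands was -0.10 and that of the receptors 0.10 with a filter at log2 of 50, and that of the wider family 0.0758 after quantile normalisation. With each library left out, the median ran from -0.093 to -0.0221 for ligands, 0.0215 to 0.0952 for receptors, 0.0079 to 0.0427 for adaptors, 0.0051 to 0.0412 for death signalling, -0.0055 to 0.0294 for kinases, -0.1373 to -0.0154 for NF-kB genes, -0.1282 to -0.0474 for feedback inhibitors, 0.0251 to 0.0832 for shedding genes and 0.0028 to 0.0564 for the wider family. Of 26 members, 18 kept their sign under every alternative they entered, 11 for each but Tnfsf10 and Tnfsf13, which the filter at log2 of 50 removes and which entered 10. The other 8 changed sign only with a library left out, and their differences then ran from -0.017 to 0.0 for Ltbr, -0.024 to 0.229 for Ngfr, -0.02 to 0.106 for Tnfrsf12a, -0.014 to 0.072 for Tnfrsf18, -0.36 to 0.083 for Tnfrsf19, -0.254 to 0.004 for Tnfsf11, -0.121 to 0.145 for Tnfsf13b and -0.216 to 0.084 for Tnfsf8. The cause of these changes was not tested.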
